A study of Mus musculus with 19 samples.

Results

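Hepatic mRNA of AM251/IDFP-treated mice (n = 5) was set against that of mice treated with IDFP alone (n = 8), to ask what pretreatment with a CB1 antagonist adds to the hepatic response to IDFP, in both directions. These 13 of the 19 arrays of the series were taken by their treatment labels, and every gene detected in at least 1 group entered the comparison, which left 9346 of 16593 named genes. AM251/IDFP-treated mice received AM251 at 10 mg/kg i.p. before IDFP at 10 mg/kg i.p., and IDFP-treated mice received isopropoyl dodecyl fluorophosphonate (IDFP) at 10 mg/kg i.p. without AM251. A further 6 mice received the vehicle DMSO, and their levels are given beside the others to show where each level lay. All were male Swiss-Webster mice aged 7 weeks, fasted before and during the treatment, their livers were taken at 4 h, and each array held the RNA of a separate mouse. Mice given AM251 alone are not part of these samples, so that what AM251 does by itself and what it does to the response to IDFP cannot be told apart. The drugs reached the whole animal, and RNA of the whole liver was hybridized, so that fewer cells of a type and less RNA per cell cannot be told apart either.

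IDFP inhibits MAGL and FAAH, the serine hydrolases that degrade the endocannabinoids 2-arachidonoylglycerol and anandamide, and so raises both of these lipids. They act on CB1, a G protein-coupled receptor known in the liver for its part in lipid synthesis and insulin resistance, and AM251, an analog of rimonabant, blocks CB1. The liver secretes most plasma proteins, among them the acute phase proteins made in response to IL-6 and IL-1, and it adjusts the transcripts of glucose, lipid and amino acid metabolism to feeding, to hormones and to its circadian clock. Transcripts of Cnr1, which encodes CB1, were near the limit of detection. Of its probes 1 was above background on 0 of the 19 arrays, and the other was above it on 2 AM251/IDFP, 0 IDFP and 1 DMSO arrays, with a highest deposited value of 20.7 units against a threshold of 17.5 to 17.6. Whole-liver RNA carries the transcripts of hepatocytes and of the cells around them, and the sum over 13 hepatocyte markers ranged from 228919 to 242453 in AM251/IDFP-treated and from 218065 to 243089 in IDFP-treated mice.

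Signals below are background-corrected and normalized intensities on the linear scale, which include an offset of 16 units, so that fold changes of dim genes are understated. Changes are log2 differences between AM251/IDFP- and IDFP-treated mice from limma, with their standard error (SE), and a gene passed the test when its Benjamini-Hochberg adjusted p was under 0.05. A gene was detected where a probe exceeded a background threshold set from the values below 0, on most arrays of at least 1 group. That threshold applies to the deposited values and cannot be set directly against the corrected signals given below. Between 9057 and 9112 genes were detected on AM251/IDFP arrays and between 8997 and 9103 on IDFP arrays. AM251/IDFP mouse 3 stood apart, with the lowest correlation to the mean of the rest of its group (r = 0.981 over the tested genes, against 0.986 to 0.992 for the other 4 and 0.986 to 0.993 for the 8 IDFP-treated mice). In this mouse 6 markers of neutrophils, Lcn2 left out, summed to 6975, while the other 4 AM251/IDFP mice had between 1406 and 2121 and IDFP-treated mice between 987 and 1720. Its 5 erythroid markers summed to 50592, against 21130.5 to 32280 in the other 4 and 18716 to 32381 in IDFP-treated mice. Counts over all genes are given with and without AM251/IDFP mouse 3.

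Signals of 1011 genes (10.8% of those tested) changed with AM251 pretreatment, of which 558 (5.97%) rose and 453 (4.85%) fell relative to IDFP alone. The median change was 1.44-fold among the higher and 0.691-fold among the lower genes, while the median log2 change over all genes was -0.01. Genes that changed more than 2-fold numbered 56 higher and 37 lower, and 11 genes were more than 4-fold higher and 0 more than 4-fold lower. In 237 genes (2.54%) every AM251/IDFP-treated mouse lay above every IDFP-treated mouse, and in 193 (2.07%) every one lay below. At an unadjusted p under 0.05 there were 2240 genes. Among genes that passed, 10 higher genes were detected on 0 IDFP arrays and 8 lower genes on 0 AM251/IDFP arrays. Of 415 further probes for the genes that passed, 387 went in the same direction and 1 went the other way with an unadjusted p under 0.05. Without AM251/IDFP mouse 3 the counts were 387 higher and 280 lower. Of these, 371 and 262 were shared with the fit of all arrays.

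**Figure D1:**
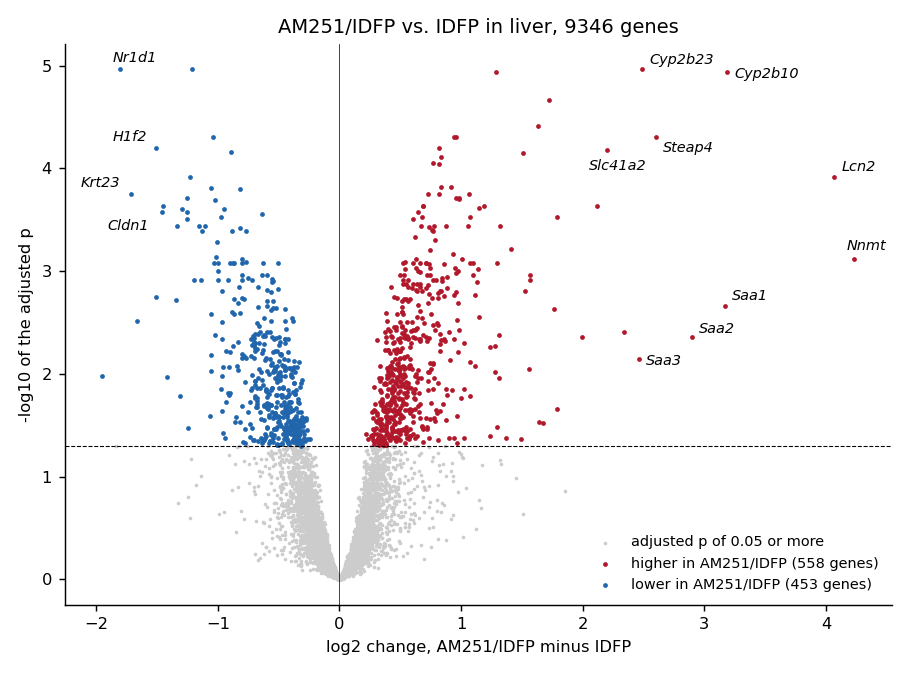
Each point is 1 of 9346 genes, with the log2 change of AM251/IDFP- over IDFP-treated mice on the x axis and -log10 of the adjusted p from limma on the y axis, where the dashed line marks 0.05. The 558 higher genes (red) reach a log2 change of 4.23 (Nnmt), whereas the 453 lower genes (blue) reach -1.95 (Pdk4).

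The largest rises were in an enzyme of nicotinamide metabolism, in acute phase proteins and in cytochromes P450 of the Cyp2b family. Nnmt, which encodes the enzyme that methylates nicotinamide, had signals of 7767, 6693, 5737, 8199 and 5499 in AM251/IDFP mice 1 to 5, against a lowest of 76.2, a median of 327 and a highest of 1970 in IDFP-treated mice. Every AM251/IDFP-treated mouse was thus above every IDFP-treated mouse, although IDFP-treated mice themselves spread widely. The log2 change was 4.23 (SE 0.70, adjusted p = 0.000755), and DMSO-treated mice had between 125 and 3158. Of 13 genes of NAD and nicotinamide metabolism tested, Nnmt was the one that passed, and Nampt, the rate-limiting enzyme of NAD salvage, had a difference of 0.61 on the log2 scale (SE 0.28, adjusted p = 0.18).

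Lcn2 encodes lipocalin 2, a protein that binds bacterial siderophores and is released by hepatocytes and neutrophils in inflammation. Its signals were 23784, 25564, 33685, 23097 and 21356 in AM251/IDFP mice 1 to 5, against 475 to 5156 with a median of 1390 in IDFP-treated mice. The groups did not overlap, and the log2 change was 4.06 (SE 0.54, adjusted p = 0.00012). The median of DMSO-treated mice, 10362, lay between those of both groups, and their range of 1328 to 16771 overlapped that of IDFP-treated mice.

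Cyp2b10, a cytochrome P450 induced by xenobiotics through the nuclear receptor CAR, had signals of 10658, 9576, 8063, 13997 and 7025 in AM251/IDFP mice 1 to 5. IDFP-treated mice had 418 to 2326, with a median of 898, and DMSO-treated mice 582 to 1579, with a median of 944. AM251/IDFP-treated mice were thus above all other mice, by a log2 change of 3.18 (SE 0.34, adjusted p = 1.15e-05) over IDFP. Cyp2b23 moved with it (log2 change 2.49, SE 0.25, adjusted p = 1.09e-05), with 1754 to 2573 in AM251/IDFP-, 218 to 787 in IDFP- and 301 to 497 in DMSO-treated mice. Genes of this family are close in sequence, and probes may share transcripts between them.

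The list of CAR and PXR targets as a whole did not follow Cyp2b10: 3 of 26 tested members rose (11.5%, against 5.97% of all genes) and 0 fell. Sult1d1, a sulfotransferase, rose by 0.77 (SE 0.20, adjusted p = 0.014), with 1510 to 2615 in AM251/IDFP- and 796 to 1854 in IDFP-treated mice, which overlap. For Cyp3a13 the log2 change was 0.90 (SE 0.28, adjusted p = 0.0419), which failed the test without any of 9 of the 19 arrays (adjusted p up to 0.0916). Of 22 other cytochromes P450, 1 fell (Cyp4v3, which failed the test without IDFP mice 2, 3 or 4 or AM251/IDFP mice 3 or 4, adjusted p up to 0.114) and 0 rose. Neither NRF2 targets and genes of glutathione synthesis (0 of 21) nor carboxylesterases and other serine hydrolases (0 of 18) held a gene that passed by limma, and 3 of each had an unadjusted p under 0.05.

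Further large rises were in genes of varied function. Slc41a2, a magnesium transporter, had 1288, 1015, 2150, 916 and 837 in AM251/IDFP mice 1 to 5, against 133 to 455 with a median of 236 in IDFP-treated mice, a log2 change of 2.20 (SE 0.28, adjusted p = 6.57e-05). Snx10, a sorting nexin of endosomes, rose by 1.72 (SE 0.19, adjusted p = 2.15e-05), with 3735 to 5700 in AM251/IDFP- and 938 to 2069 in IDFP-treated mice. Insc, an adaptor of spindle orientation, rose by 1.63 (SE 0.19, adjusted p = 3.84e-05). Cpne8, a copine, rose by 1.79 (SE 0.27, adjusted p = 0.000298), and Nrg4, a secreted ligand of ErbB receptors, by 1.53 (SE 0.28, adjusted p = 0.00155). In these 5 genes every AM251/IDFP-treated mouse was above every IDFP-treated mouse. Medians of DMSO-treated mice lay between those of both groups, except in Cpne8, where the median was 408 in AM251/IDFP- and 424 in DMSO-treated mice.

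**Figure D2:**
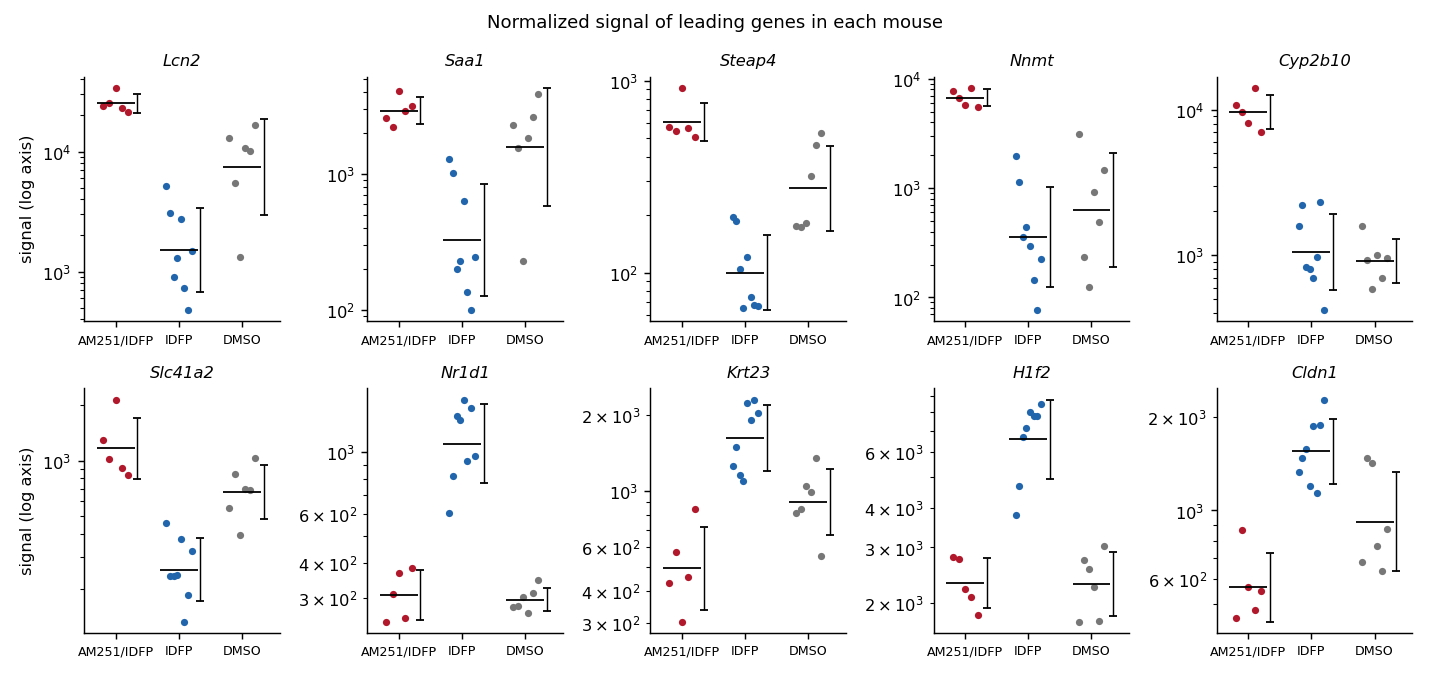
Points are the normalized signals (log axis) of single mice for 10 genes, in AM251/IDFP-, IDFP- and DMSO-treated mice from left to right; lines are geometric means and error bars the SD of the log2 signals. In the 6 genes that rose and the 4 that fell, AM251/IDFP- and IDFP-treated mice did not overlap; Nr1d1, for example, lay at 246 to 382 after AM251/IDFP and at 604 to 1540 after IDFP.

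Among genes whose groups did not overlap, the largest falls were in Nr1d1, Krt23 and H1f2. Nr1d1 encodes REV-ERBα, a nuclear receptor that represses clock and metabolic genes, and had signals of 246, 308, 369, 253 and 382 in AM251/IDFP mice 1 to 5, against 604 to 1540 with a median of 1131 in IDFP-treated mice. Its log2 change was -1.80 (SE 0.18, adjusted p = 1.09e-05), and DMSO-treated mice had 264 to 347, within the span of AM251/IDFP-treated mice. Krt23, a type I keratin, had 433, 573, 303, 458 and 848 in AM251/IDFP mice 1 to 5, against 1090 to 2294 in IDFP-treated mice (log2 change -1.71, SE 0.24, adjusted p = 0.000178). H1f2, a linker histone, had 2804, 2765, 2224, 2089 and 1838, against 3786 to 8475 in IDFP-treated mice (log2 change -1.51, SE 0.19, adjusted p = 6.35e-05). The fall of H1f2 was the single call among 11 linker and core histone genes.

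Cldn1, a claudin of the tight junctions that seal bile canaliculi, had signals of 451, 863, 567, 476 and 548 in AM251/IDFP mice 1 to 5, against 1141 to 2280 in IDFP-treated mice, a log2 change of -1.46 (SE 0.22, adjusted p = 0.000267). Bok, a relative of Bcl2, fell by 1.30 (SE 0.19, adjusted p = 0.000248). Sucnr1, the receptor for succinate, fell by 1.14 (SE 0.20, adjusted p = 0.00123), and Hes6, a transcription cofactor, by 1.23 (SE 0.16, adjusted p = 0.000122). Eps8l2, a regulator of actin, fell by 1.21 with little spread (SE 0.12, adjusted p = 1.09e-05): signals were 432 to 494 in AM251/IDFP-, 802 to 1359 in IDFP- and 586 to 860 in DMSO-treated mice. Cpeb2, Lrfn3, Zfp280d, Flvcr2, Pxylp1 and Arhgef19 complete, with Fosb, the 15 largest falls among genes whose groups did not overlap, with log2 changes between -1.45 and -1.16. Fosb passed the detection filter through IDFP arrays alone, as given below.

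**Figure D3:**
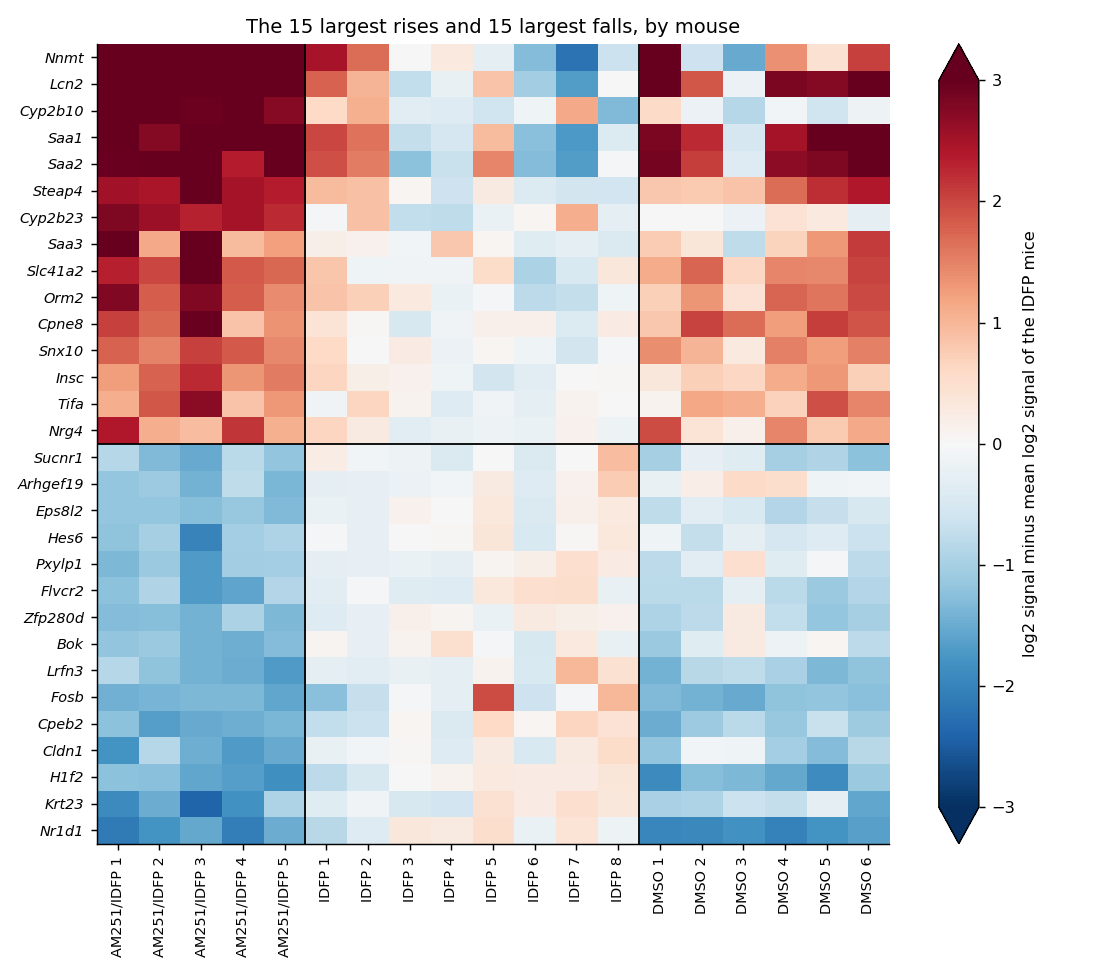
Colors give the log2 signal of each mouse (columns, AM251/IDFP then IDFP then DMSO) minus the mean log2 signal of the IDFP-treated mice, for the 15 largest rises (top) and the 15 largest falls (bottom) whose groups do not overlap; colors saturate at 3 on either side. In AM251/IDFP-treated mice the top rows are red and the bottom rows blue throughout, and IDFP 1 and 2 are the IDFP-treated mice with the highest Nnmt and Saa1.

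Promoters of the 3 largest rises and the 3 largest falls that a RefSeq table holds, among genes whose groups did not overlap, are shown next as examples of both directions; Nnmt has no entry. Each line gives the 250 bases before the listed start in GRCm38.p6, from 5′ to 3′ on the strand of the gene. Capitals mark matches to any of 8 short motifs on either strand. These were TGATGNAA, bound by ATF4 with C/EBP, the E-box CACGTG, the core of the REV-ERB and ROR site TAGGTCA and the STAT motif TTCNNNGAA. The others were the NF-kappaB core GGNNTTTCC, the core of the sterol element CACCCCAC, the CRE TGACGTCA and the TATA box TATAAA. Lcn2 is read from chr2:32387740-32387989 on the minus strand, Cyp2b10 from chr7:25897408-25897657 on the plus strand and Saa1 from chr7:46742981-46743230 on the minus strand. Of the genes that fell, Nr1d1 is read from chr11:98775378-98775627 and Krt23 from chr11:99493121-99493370, both on the minus strand, and H1f2 from chr13:23738557-23738806 on the plus strand.
Lcn2: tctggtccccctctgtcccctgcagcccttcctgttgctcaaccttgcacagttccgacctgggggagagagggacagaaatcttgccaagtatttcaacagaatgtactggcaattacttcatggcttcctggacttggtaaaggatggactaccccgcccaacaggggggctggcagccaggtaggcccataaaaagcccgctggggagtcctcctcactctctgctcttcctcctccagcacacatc
Cyp2b10: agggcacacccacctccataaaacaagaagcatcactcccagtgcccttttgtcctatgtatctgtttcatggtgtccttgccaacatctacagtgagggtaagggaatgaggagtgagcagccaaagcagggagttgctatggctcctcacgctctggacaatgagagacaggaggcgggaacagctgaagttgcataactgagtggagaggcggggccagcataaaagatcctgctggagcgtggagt
Saa1: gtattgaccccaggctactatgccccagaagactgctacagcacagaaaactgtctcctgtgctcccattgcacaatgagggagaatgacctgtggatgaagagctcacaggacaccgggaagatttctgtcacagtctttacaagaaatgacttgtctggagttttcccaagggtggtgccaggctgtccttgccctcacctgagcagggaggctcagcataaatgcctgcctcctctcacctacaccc
Nr1d1: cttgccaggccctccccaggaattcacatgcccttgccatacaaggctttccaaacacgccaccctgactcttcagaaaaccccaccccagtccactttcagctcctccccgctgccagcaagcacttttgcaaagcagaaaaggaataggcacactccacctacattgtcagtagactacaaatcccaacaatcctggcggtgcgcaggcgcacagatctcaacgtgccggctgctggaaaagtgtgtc
Krt23: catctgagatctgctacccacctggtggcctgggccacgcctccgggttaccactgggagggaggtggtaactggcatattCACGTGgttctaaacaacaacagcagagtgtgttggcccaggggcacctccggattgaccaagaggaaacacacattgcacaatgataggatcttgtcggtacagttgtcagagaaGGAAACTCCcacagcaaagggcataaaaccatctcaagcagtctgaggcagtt
H1f2: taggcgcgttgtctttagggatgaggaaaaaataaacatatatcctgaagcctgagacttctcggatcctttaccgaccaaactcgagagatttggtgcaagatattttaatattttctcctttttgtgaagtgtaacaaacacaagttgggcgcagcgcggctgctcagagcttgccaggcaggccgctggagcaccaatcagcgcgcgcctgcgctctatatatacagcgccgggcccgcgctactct
Capitals occur in the promoter of Krt23 alone, an E-box that begins 169 bases and a match to the NF-kappaB core that begins 53 bases before the start. These letters are common: of 7621 tested genes with a promoter of 300 bases (50 bases after the start included), 10.2% held the E-box and 5.96% the NF-kappaB core. Of the 8 motifs, STAT was held by 9.59% of the promoters of higher, 5.49% of those of lower and 6.93% of those of all tested genes, and the ATF4 motif by 4.05, 2.20 and 2.52%. A match is a description of the sequence, and shares were not tested against each other.

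Acute phase proteins, the secreted proteins by which the liver responds to inflammation, were higher in AM251/IDFP-treated mice as a group. This and the other gene lists were chosen with earlier results of these data known, and their shares were not tested. Of 21 tested members of the list, Lcn2 included, 14 (66.7%, against 5.97% of all genes) rose and 0 fell. Their median log2 change was 1.01 against -0.01 over all genes. In 12 members every AM251/IDFP-treated mouse was above every IDFP-treated mouse, against 2.54% of all genes. The call held in each fit without 1 array for 13 of the 14, and without AM251/IDFP mouse 3 the count was 13. Saa1 and Saa2, serum amyloids A carried on HDL, are nearly identical in sequence and may share signal. Saa1 had 2593, 2198, 4043, 2912 and 3137 in AM251/IDFP mice 1 to 5, against 98.7 to 1293 with a median of 237 in IDFP-treated mice (log2 change 3.17, SE 0.61, adjusted p = 0.00217). Levels in DMSO-treated mice (229 to 3879) spanned most of the range of both. Saa2 rose by 2.90 (SE 0.62, adjusted p = 0.00435) and Saa4, the constitutive member, by 1.24 (SE 0.27, adjusted p = 0.00544).

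Saa3, which macrophages also make, differed from these in its spread. Its signals were 4391 and 9503 in AM251/IDFP mice 1 and 3 but 637, 559 and 671 in mice 2, 4 and 5, against 212 to 506 in IDFP-treated mice. The groups did not overlap, but mice 1 and 3 stood far above the rest (log2 change 2.46, SE 0.56, adjusted p = 0.00725). Steap4, a metalloreductase of iron and copper, had 573, 549, 912, 570 and 511 in AM251/IDFP mice 1 to 5, against 65.1 to 194 in IDFP- and 172 to 530 in DMSO-treated mice (log2 change 2.603, SE 0.32, adjusted p = 5e-05). The acid glycoproteins Orm2 and Orm1, which bind drugs in plasma and are close in sequence, rose by 2.12 (SE 0.31, adjusted p = 0.000232) and 1.05 (SE 0.16, adjusted p = 0.000365). Apcs, the amyloid P component, rose by 1.11 (SE 0.21, adjusted p = 0.00169), and Lbp, which binds bacterial lipopolysaccharide, by 1.09 (SE 0.19, adjusted p = 0.00109). Lrg1, a secreted glycoprotein, rose by 0.86 (SE 0.15, adjusted p = 0.000849). The fibrinogen-like hepatokine Fgl1 rose by 0.76 (SE 0.12, adjusted p = 0.0004) and Itih4 by 0.31 (SE 0.07, adjusted p = 0.00469). Hp, the haptoglobin that binds free hemoglobin, was higher by 0.57 (SE 0.18, adjusted p = 0.0435), which failed the test without any of 14 of the 19 arrays (adjusted p up to 0.51).

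Among other plasma proteins, of 22 tested genes of fibrinogen, complement and coagulation 0 passed in either direction (2 had an unadjusted p under 0.05). Their median log2 change was -0.08, and values ran from -0.99 (Serpinc1) to 0.28. Fgb was dim on all arrays, at 31.1 to 174 units. Signals of neutrophil markers stood higher in AM251/IDFP mouse 3 as given above; of 7 tested markers Lcn2, which hepatocytes also express, was the one that passed, S100a8 had a log2 change of 0.91 (adjusted p = 0.0888) and S100a9 of 0.70 (adjusted p = 0.219). The median log2 change of the 7 was 0.70, 6 were positive, 4 had an unadjusted p under 0.05, and 3 passed without AM251/IDFP mouse 4. Mpo and Mmp8, defining genes of neutrophil granules, were detected on 0 of the 19 arrays and Elane on 5. The part of neutrophils in the acute phase result was not tested.

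Regulators upstream of acute phase genes changed in part. Stat3, the transcription factor activated by IL-6, had signals of 3511, 3219, 5193, 4286 and 3012 in AM251/IDFP mice 1 to 5, against 1672 to 2474 in IDFP-treated mice (log2 change 0.93, SE 0.15, adjusted p = 0.000683). The groups did not overlap, and DMSO-treated mice had 2583 to 5015. Osmr, the receptor of oncostatin M, rose by 0.79 (SE 0.22, adjusted p = 0.0223) with 1 mouse far above the rest (499.9 in AM251/IDFP mouse 3, against 145 to 184 in the other 4 and 92.9 to 161 in IDFP-treated mice). Both make up the 2 of 13 members of the STAT3 and IL-6 list that passed (15.4%, against 10.8% of all genes in either direction).

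Of 17 tested genes of NF-kappaB and Toll-like receptor signaling, 5 rose (29.4%, against 5.97% of all genes) and 0 fell, with a median log2 change of 0.36. Myd88, the adaptor of most Toll-like and IL-1 receptors, had 2500, 3066, 3507, 1822 and 2444 in AM251/IDFP mice 1 to 5, against 838 to 1664 in IDFP-treated mice (log2 change 1.07, SE 0.16, adjusted p = 0.000298). Bcl3, a nuclear cofactor of NF-kappaB, rose by 1.14 (SE 0.20, adjusted p = 0.000958) and Irak3, an inhibitor of IL-1 receptor kinases, by 0.87 (SE 0.22, adjusted p = 0.0141). Tifa, an adaptor upstream of NF-kappaB and 1 of the 15 largest rises with groups that did not overlap, had 251, 427, 766, 212 and 287 in AM251/IDFP mice 1 to 5 and 89.7 to 183 in IDFP-treated mice (log2 change 1.57, SE 0.28, adjusted p = 0.00123). The neutrophil attractant Cxcl1 (log2 change 1.79, SE 0.49, adjusted p = 0.0219) failed the test without AM251/IDFP mouse 2 or 3 (adjusted p up to 0.0657). The adhesion molecule Icam1 (0.68, SE 0.20, adjusted p = 0.0342) failed without IDFP mouse 3 or AM251/IDFP mouse 1, 2 or 3 (up to 0.0878). Without AM251/IDFP mouse 2 or mouse 3, 3 members of the list passed.

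Matches to the motifs of these factors are shown for the members that rose, in stretches of 30 bases with the match in capitals, from RefSeq promoters in GRCm38.p6. The STAT motif was held by 4 of 17 acute phase promoters (23.5%, against 6.93% of all tested genes), and by 4 of 16 promoters of fibrinogen, complement and coagulation (25%), a list in which 0 genes passed. Of the acute phase genes that hold it, Apcs (chr1:172895275-172895304, minus strand, 244 bases before the start), Itih4 (chr14:30886415-30886444, plus strand, 51 bases before) and Steap4 (chr5:7960346-7960375, plus strand, 116 bases before) rose. The NF-kappaB core was held by 7 of 14 promoters of its list (50%, against 5.96%), of which Myd88 (chr9:119339995-119340024, minus strand, after the start), Cxcl1 (chr5:90891165-90891194, plus strand, 70 bases before), Icam1 (chr9:21015846-21015875, plus strand, 84 bases before) and Bcl3 (chr7:19822840-19822869, minus strand, 104 bases before) rose.
Apcs: atcttcTTCTAGGAAagcacagggtcatga
Itih4: aaacctgcatTTCCGAGAActtgcaccagc
Steap4: ggttgaactcTTCCCGGAAactttgcttca
Myd88: aagggaagtaGGAAACTCCacaggcgagcg
Cxcl1: ctgtactccgGGAATTTCCctggcccggag
Icam1: gtctccacccGGAAATACCgaagccctcgt
Bcl3: cgcgggtccaGGAAACCCCtggggcggacg
In Cxcl1 and Icam1 the promoter held 2 matches, and the one nearest the 3′ end is shown. Hamp held the STAT motif and did not pass, while Lrg1, Orm2 and Saa3 rose without it. Nfkb2, Nfkbia and Tnfaip3 held the NF-kappaB core and did not pass, and Irak3 rose without a match in this window. These shares describe sequences and were not tested.

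Genes that ATF4 induces when amino acids are short rose in part. Of 24 tested members, 6 rose (25%, against 5.97% of all genes) and 0 fell, with a median log2 change of 0.36, and 5 of the 6 kept their call in each fit without 1 array. Without AM251/IDFP mouse 4, 10 members were higher, and without AM251/IDFP mouse 3, 5 were higher and 1 lower. Asns, which makes asparagine, had signals of 1610, 1264, 2566, 396 and 833 in AM251/IDFP mice 1 to 5, against 114 to 922 with a median of 269 in IDFP-treated mice (log2 change 2.00, SE 0.43, adjusted p = 0.00439). AM251/IDFP mice 4 and 5 were within the range of IDFP-treated mice and the other 3 above it, and DMSO-treated mice had 1222 to 2682. Psat1, an enzyme of serine synthesis, rose by 1.56 (SE 0.37, adjusted p = 0.009) and Mthfd2, of the mitochondrial folate cycle, by 1.41 (SE 0.23, adjusted p = 0.000606).

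Inhbe, which encodes the hepatokine activin E, had signals of 551, 251, 429, 347 and 362 in AM251/IDFP mice 1 to 5, against 64.7 to 286 with a median of 154 in IDFP-treated mice (log2 change 1.31, SE 0.28, adjusted p = 0.00414). AM251/IDFP mouse 2 lay within the range of IDFP-treated mice, and both groups lay below the 860 to 1766 of DMSO-treated mice. Ddit4, an inhibitor of mTORC1, had 456, 1110, 1178, 1976 and 1433, against 316 to 826 in IDFP- and 297 to 940 in DMSO-treated mice (log2 change 1.28, SE 0.31, adjusted p = 0.00956). Fgf21, a hepatokine of fasting and of amino acid shortage, had 721, 510, 1692, 169 and 736 in AM251/IDFP mice 1 to 5 and 96.8 to 497 in IDFP-treated mice, far below the 2713 to 8398 of DMSO-treated mice. Its log2 change of 1.495 (SE 0.47, adjusted p = 0.0429) failed the test without any of 10 of the 19 arrays (adjusted p up to 0.16).

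Aminoacyl-tRNA synthetases of the cytosol load amino acids on tRNAs and include ATF4 targets. Their list, which also holds Eef1e1 and Aimp1 of the synthetase complex that load no amino acid, rose in 10 of 20 tested members (50%, against 5.97% of all genes). In this list 0 were lower, and the median log2 change was 0.30. Without AM251/IDFP mouse 1 or mouse 3, 6 members passed. Eef1e1, a scaffold protein of the synthetase complex, had 487, 554, 590, 562 and 455 in AM251/IDFP mice 1 to 5, against 166 to 410 in IDFP- and 438 to 547 in DMSO-treated mice (log2 change 0.96, SE 0.17, adjusted p = 0.00105). Lars, Aars and Iars, the synthetases of leucine, alanine and isoleucine, rose by 0.72 (SE 0.13, adjusted p = 0.00109), 0.62 (SE 0.13, adjusted p = 0.00445) and 0.59 (SE 0.12, adjusted p = 0.0031). Rars (0.49) and Wars (0.44) also kept their call in each fit without 1 array. Gars, Nars, Farsb and Aimp1 did not: Farsb failed without AM251/IDFP mouse 1 or 3 (adjusted p up to 0.0614), and the others without 9 to 11 of the 19 arrays (up to 0.138). Of 11 mitochondrial synthetases, Rars2 alone passed (0.45, SE 0.09, adjusted p = 0.00351).

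The ATF4 motif TGATGNAA was found in 7 of 21 promoters of the ATF4 list (33.3%) and in 4 of 14 promoters of the cytosolic synthetase list (28.6%), against 2.52% of all tested genes. Of these, 6 rose. They are Asns (chr6:7693214-7693243, minus strand, 23 bases before the start), Fgf21 (chr7:45615611-45615640, minus strand, 139 bases before), Inhbe (chr10:127352011-127352040, minus strand, 181 bases before) and Gars (chr6:55037960-55037989, plus strand, 30 bases before). In the others the match lies after the start: Aars (chr8:111033840-111033869, plus strand) and Iars (chr13:49682126-49682155, plus strand). Capitals mark the motif or its reverse complement; Aars held 2 matches, of which the one nearest the 3′ end is shown.
Asns: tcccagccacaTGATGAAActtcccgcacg
Fgf21: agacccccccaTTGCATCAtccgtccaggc
Inhbe: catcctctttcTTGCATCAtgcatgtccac
Gars: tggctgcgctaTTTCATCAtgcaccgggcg
Aars: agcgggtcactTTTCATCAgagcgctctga
Iars: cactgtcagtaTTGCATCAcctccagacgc
The other members that held it, Atf3, Chac1, Nupr1, Trib3 and Tars, did not pass the test, and Psat1, Mthfd2 and Ddit4 passed without a match in this window. Members of the ATF4 list were chosen as targets of ATF4, so the share with its motif says nothing about the response to AM251.

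Ribosome biogenesis, the making of ribosomes from rRNA and proteins in the nucleolus, was the list with the most genes that passed: 17 of 46 tested members rose (37.0%, against 5.97% of all genes) and 0 fell, with a median log2 change of 0.33. In 8 members every AM251/IDFP-treated mouse was above every IDFP-treated mouse, against 2.54% of all genes. Without AM251/IDFP mouse 3 the count was 11, the lowest in any fit without 1 array. Ftsj3, an rRNA methyltransferase, had 363, 406, 597, 409 and 393 in AM251/IDFP mice 1 to 5, against 162 to 322 in IDFP- and 255 to 368 in DMSO-treated mice (log2 change 0.84, SE 0.15, adjusted p = 0.00125). Rrp12, a factor of ribosome export, rose by 0.84 (SE 0.18, adjusted p = 0.00465), and Nop58, a core protein of box C/D snoRNPs, by 0.83 (SE 0.15, adjusted p = 0.00155). Heatr1, needed for rRNA transcription, rose by 0.71 (SE 0.15, adjusted p = 0.00435). Next came the rRNA methyltransferase Nop2 with 0.68 (SE 0.14, adjusted p = 0.00288) and the assembly factor Brix1 with 0.54 (SE 0.09, adjusted p = 0.000812). In Rrp12 and Brix1 every AM251/IDFP-treated mouse was above every IDFP- and DMSO-treated mouse. Rrp9 and Mybbp1a failed the test without AM251/IDFP mouse 3 (adjusted p = 0.0676 and 0.0588), and Nop56, Nob1, Polr1a and Ddx18 without 6 to 11 of the 19 arrays (up to 0.153).

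Structural genes of ribosomes and of the respiratory chain held no call. Of 32 cytosolic ribosomal proteins and 43 subunits of oxidative phosphorylation, 0 passed the test in either direction, by limma, with median log2 changes of -0.02 and -0.06, and 1 gene of each list had an unadjusted p under 0.05. Among 20 translation initiation factors 3 rose (15%, against 5.97% of all genes). The RNA helicase Eif4a1 rose by 0.55 (SE 0.10, adjusted p = 0.00187), with 8491 to 10854 in AM251/IDFP- and 5380 to 7391 in IDFP-treated mice. Eif1a failed the test without AM251/IDFP mouse 2 or 3 and Eif2b4 without mouse 1 or 3 (adjusted p up to 0.0806). Of 32 proteasome subunits, Psmd12 passed, but not without AM251/IDFP mouse 1 or 2 (up to 0.069). Of 20 genes of ER stress and ER chaperones 3 rose (15%, against 5.97% of all genes). Xbp1, the transcription factor of the unfolded protein response, rose by 0.79 (SE 0.14, adjusted p = 0.00123) and Dnajb9, an ER cochaperone, by 0.96 (SE 0.19, adjusted p = 0.003). The ubiquitin ligase Syvn1 failed without IDFP mouse 7 or AM251/IDFP mouse 1 or 3 (up to 0.106). The cytosolic chaperone Hspb8 and its partner Bag3 rose by 0.78 (SE 0.16, adjusted p = 0.00371) and 0.81 (SE 0.20, adjusted p = 0.0124), among 14 heat shock and cold-inducible genes. Of these 28.6% passed in either direction, against 10.8% of all genes. Of the cold-inducible genes, Rbm3 was higher by 0.62 but failed without 8 of the 19 arrays (adjusted p up to 0.153). Cirbp was lower by 0.68 and failed without AM251/IDFP mouse 1 or 4 (up to 0.0628).

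**Figure D4:**
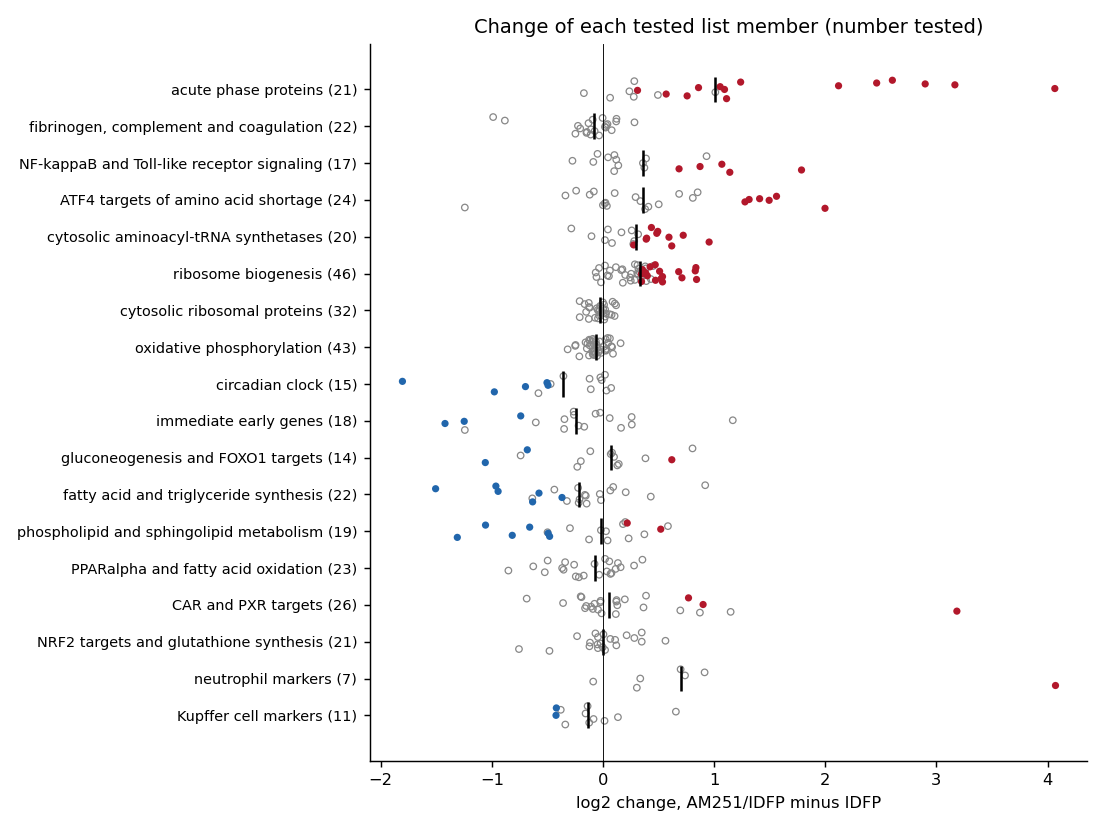
Each point is 1 tested member of a gene list, placed by its log2 change of AM251/IDFP- over IDFP-treated mice (x axis). Red and blue points passed the test, open points did not, and vertical bars are medians. The median was 1.01 in acute phase proteins, 0.36 in ATF4 targets and -0.36 in clock genes, and all points of the 43 oxidative phosphorylation genes are open.

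Clock genes were lower where they passed. Of 15 tested members of the circadian clock list, 5 were lower (33.3%, against 4.85% of all genes) and 0 higher, with a median log2 change of -0.36. Csnk1d and Csnk1e, the casein kinases that phosphorylate PER proteins, fell by 0.70 (SE 0.16, adjusted p = 0.00596) and 0.49 (SE 0.13, adjusted p = 0.0139). Csnk1e had 221, 218, 230, 208 and 220 in AM251/IDFP mice 1 to 5, against 247 to 393 in IDFP- and 133 to 221 in DMSO-treated mice. Bhlhe40, a repressor at E-boxes, fell by 0.98 (SE 0.25, adjusted p = 0.0141), with overlapping groups (1499.5 to 2441 in AM251/IDFP- and 1759 to 6563 in IDFP-treated mice), and Nfil3 by 0.50 (SE 0.14, adjusted p = 0.0255), a call lost without AM251/IDFP mouse 1, 4 or 5 (up to 0.069). Livers were taken 4 h after treatment, and the hour of the day is not among the labels used here.

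Of 18 immediate early genes, induced by growth factors and stress without new protein synthesis, 3 were lower (16.7%, against 4.85% of all genes) and 0 higher. Gadd45g had the largest positive value, a 2.25-fold difference, and did not pass. Fosb, a subunit of AP-1, was above background on 0 of the 5 AM251/IDFP arrays, 7 of the 8 IDFP arrays and 0 of the 6 DMSO arrays, with signals of 40.9 to 47.01 in AM251/IDFP- and 49.9 to 465 in IDFP-treated mice. It was thus at least 2.02-fold lower in AM251/IDFP-treated mice. Fosb entered the comparison through the IDFP arrays alone, where it was high. Its adjusted p of 0.0107 by limma is therefore given as a description. Jund and Gadd45b fell by 0.74 (SE 0.22, adjusted p = 0.0306) and 1.25 (SE 0.37, adjusted p = 0.0334), but failed the test without 6 and 7 of the 19 arrays (adjusted p up to 0.107). The list had 1 member lower without IDFP mouse 5 or 7 or AM251/IDFP mouse 1 or 5, and 5 without AM251/IDFP mouse 3. Without IDFP mouse 1 or 2, 1 member was higher.

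Of 14 genes of gluconeogenesis and FOXO1 targets, 2 fell (G6pc and Sesn1) and 1 rose (Gpt2), with a median log2 change of 0.08 and 8 positive values. This is 21.4% in either direction, against 10.8% of all genes. Of 14 genes of glycolysis and pyruvate dehydrogenase control, 2 were lower and 0 higher (14.3% in either direction). Pdk4, the kinase that shuts off pyruvate dehydrogenase in fasting, had 123, 165, 252, 204 and 176 in AM251/IDFP mice 1 to 5, against 184 to 2492 with a median of 728 in IDFP-treated mice. Its log2 change of -1.95 (SE 0.47, adjusted p = 0.0104) was the largest fall of any gene that passed, although the lowest IDFP-treated mouse lay within the AM251/IDFP range, and DMSO-treated mice had 82.3 to 126. Pdk2 fell by 0.38 (SE 0.12, adjusted p = 0.0449) but failed the test without 13 of the 19 arrays (up to 0.168), and the other 12 tested genes of glycolysis and pyruvate dehydrogenase control did not pass. G6pc, which releases glucose in gluconeogenesis, had 9195, 4191, 3008, 7324 and 5794 in AM251/IDFP mice 1 to 5, against 6801 to 18497 in IDFP- and 2618 to 6772 in DMSO-treated mice (log2 change -1.06, SE 0.25, adjusted p = 0.00934). Sesn1, a sestrin that restrains mTORC1, fell by 0.68 (SE 0.14, adjusted p = 0.00318) with groups that did not overlap (234 to 314 in AM251/IDFP- and 342 to 675 in IDFP-treated mice), and Gpt2, the mitochondrial alanine aminotransferase, rose by 0.62 (SE 0.16, adjusted p = 0.0176).

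**Figure D5:**
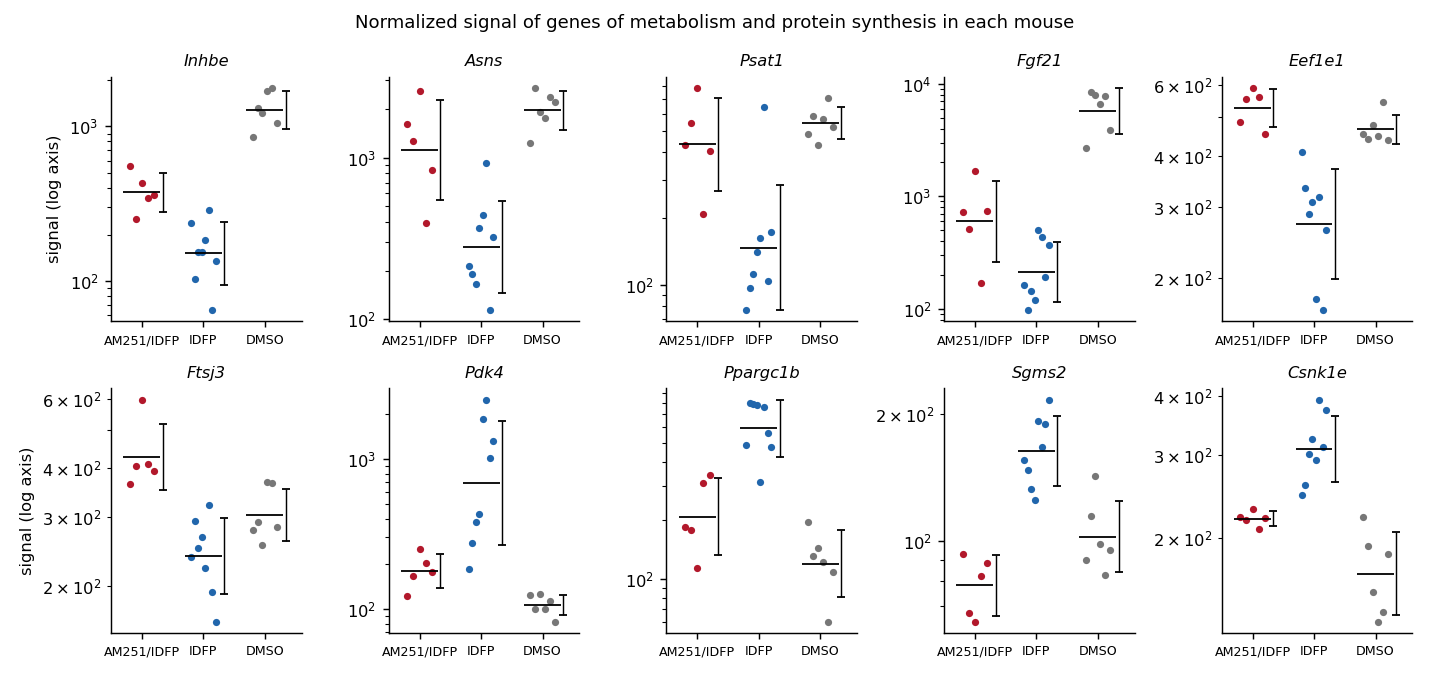
Points are the normalized signals (log axis) of single mice for 10 genes of metabolism, protein synthesis and the clock, in AM251/IDFP-, IDFP- and DMSO-treated mice from left to right; lines are geometric means and error bars the SD of the log2 signals. Fgf21 lay between 169 and 1692 after AM251/IDFP, between 96.8 and 497 after IDFP and at 2713 or more after DMSO, while Sgms2 lay between 64.2 and 92.9, 125 and 216, and 83.0 and 142 in these groups.

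Among 22 genes of fatty acid and triglyceride synthesis 6 fell (27.3%, against 4.85% of all genes) and 0 rose, with a median log2 change of -0.21, but without AM251/IDFP mouse 3 the count was 2. Those that kept their calls in each fit without 1 array were Ppargc1b, a coactivator of SREBP and of estrogen-related receptors, and Agpat2, which makes phosphatidic acid. Ppargc1b had 185, 178, 113, 311 and 341 in AM251/IDFP mice 1 to 5, against 314 to 799 with a median of 661 in IDFP- and 60.4 to 196 in DMSO-treated mice (log2 change -1.51, SE 0.28, adjusted p = 0.00179). Agpat2 had 1037, 988, 1034, 879 and 914, against 930 to 1948 in IDFP-treated mice (log2 change -0.63, SE 0.14, adjusted p = 0.00592). Srebf1, the master regulator of lipogenesis, fell by 0.96 (SE 0.27, adjusted p = 0.023), a call lost without AM251/IDFP mouse 1, 2 or 3 (up to 0.064), and Gpam by 0.58, a call lost without AM251/IDFP mouse 3 or 4 (up to 0.0759). Elovl5 and the lipin Lpin2 failed without 8 and 11 of the 19 arrays (up to 0.138). Of 23 PPARα targets and genes of fatty acid oxidation, 0 passed the test by limma and 1 had an unadjusted p under 0.05. Of 20 genes of cholesterol synthesis, 1 was higher (Sqle) and 2 lower (Stard4 and Insig1), 15% in either direction against 10.8% of all genes. These calls were lost without AM251/IDFP mouse 1 for Stard4 (adjusted p = 0.0572) and without 10 and 11 of the 19 arrays for Insig1 and Sqle (up to 0.126).

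Phospholipid and sphingolipid genes held firmer falls: of 19 tested, 6 were lower and 2 higher (42.1% in either direction, against 10.8% of all genes), and 5 of those lower kept their call in each fit without 1 array. Sgms2, which makes sphingomyelin at the plasma membrane, had 92.9, 67.5, 64.2, 82.6 and 88.3 in AM251/IDFP mice 1 to 5, against 125 to 216 in IDFP-treated mice (log2 change -1.06, SE 0.15, adjusted p = 0.000156). Lpcat3, which loads polyunsaturated acyl chains on phospholipids, had 1814, 2008, 1264, 1893 and 2224, against 2854 to 3850 in IDFP-treated mice (log2 change -0.82, SE 0.11, adjusted p = 0.00016). Ptdss2, a phosphatidylserine synthase, fell by 0.66 (SE 0.16, adjusted p = 0.0089), also with groups that did not overlap, and the phosphoinositide phosphatase Mtmr3 by 0.49 (SE 0.11, adjusted p = 0.00527). Choline kinase Chka fell by 1.31 (SE 0.34, adjusted p = 0.0163), with 71.8 to 114 in AM251/IDFP- and 70.5 to 454 in IDFP-treated mice, and Chkb by 0.48, a call lost without IDFP mouse 5 or AM251/IDFP mouse 3 or 5 (up to 0.109). The 2 higher genes, Pla2g12a and Sptlc1, failed without 7 and 10 of the 19 arrays, AM251/IDFP mouse 3 among them (up to 0.105).

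Apoa5, the apolipoprotein that lowers plasma triglyceride by activating lipoprotein lipase, had 3312, 3097, 3038, 2691 and 3507 in AM251/IDFP mice 1 to 5, against 1390 to 2222 in IDFP- and 1709 to 3679 in DMSO-treated mice. Groups did not overlap (log2 change 0.82, SE 0.15, adjusted p = 0.00155). Of 19 apolipoproteins and genes of lipoprotein handling Apol9b was the other to pass, lower by 0.68 and lost without AM251/IDFP mouse 1, 3 or 4 (adjusted p up to 0.0618). The share that passed was 10.5% in either direction, near the 10.8% of all genes. Among the bile acid genes 2 of 19 were lower and 0 higher, also 10.5% in either direction. These were Abcg8, a subunit of the sterol exporter, by 0.83 (SE 0.18, adjusted p = 0.00489), and Hsd3b7 by 0.38, a call lost without 9 of the 19 arrays (up to 0.0876). Cyp7a1, the rate-limiting enzyme of bile acid synthesis, had a log2 change of -1.33 (adjusted p = 0.18).

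Of the endocannabinoid system, 10 genes were tested, and 1 was higher and 3 lower (40% in either direction, against 10.8% of all genes). Faah, a target of IDFP, had signals of 2606, 2806, 1920, 2408 and 2723 in AM251/IDFP mice 1 to 5, against 2881 to 3424 in IDFP- and 2962 to 4466 in DMSO-treated mice. Its log2 change of -0.32 (SE 0.10, adjusted p = 0.0464) failed the test without any of 15 of the 19 arrays (adjusted p up to 0.177). Mgll, which encodes MAGL, the other target, had 1774 to 3427 in AM251/IDFP- and 2430 to 3543 in IDFP-treated mice (log2 change -0.13, SE 0.14, adjusted p = 0.631). Daglb, a synthase of 2-arachidonoylglycerol, and Abhd12, a hydrolase, were lower by 0.42 and 0.32, and Gde1, of an anandamide route, was higher by 0.58. Daglb failed without AM251/IDFP mouse 3 (adjusted p = 0.0607) and with the mean over detected probes (adjusted p = 0.188). Gde1 failed without AM251/IDFP mouse 1, 4 or 5 (up to 0.0673) and Abhd12 without 13 of the 19 arrays (up to 0.162). Without AM251/IDFP mouse 3, 0 members of the list were lower.

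Of 27 tested genes of the urea cycle and amino acid catabolism 3 passed (11.1%, near the 10.8% of all genes), and 2 of these rose, the mitochondrial ornithine carrier Slc25a15 by 0.53 (SE 0.13, adjusted p = 0.00996) and the lysine-degrading Aass by 0.83 (SE 0.18, adjusted p = 0.00514). The call of Aass was lost with the mean over detected probes (adjusted p = 0.128) and with the replicate block. Slc25a15 had 5316 to 6547 in AM251/IDFP-, 3100 to 5007 in IDFP- and 1891 to 3209 in DMSO-treated mice. Kynu, of tryptophan breakdown, was lower by 0.40 and failed without 6 of the 19 arrays (adjusted p up to 0.115).

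Markers of other liver cells held few calls. Of 11 Kupffer cell markers 2 were lower (18.2%, against 10.8% of all genes in either direction), Timd4 (-0.42) and Clec4f (-0.42), which failed without 7 and 13 of the 19 arrays, AM251/IDFP mouse 3 among them (adjusted p up to 0.142). The markers summed to 10092 to 14187 in AM251/IDFP- and 11426 to 18275 in IDFP-treated mice. Cd5l, a further marker, was detected on 0 arrays. Lyve1 of sinusoidal endothelium was higher (0.69, 1 of 12 markers, lost without 13 of the 19 arrays), while the median log2 change of the 12 markers was -0.18 and 2 of them, Lyve1 included, had a positive value. Lrat of stellate cells was lower by at least 1.26-fold (1 of 11, above background on 0 AM251/IDFP and 7 IDFP arrays, lost without AM251/IDFP mouse 3 or 4). The hepatocyte regulator Hnf4a was higher by 0.46 (1 of 13 hepatocyte markers, lost without 6 of the 19 arrays), and no marker of lymphocytes (5 tested), cholangiocytes (3) or erythroid cells (5) passed or had an unadjusted p under 0.05.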

How the data were processed

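Total liver RNA was hybridized by the authors to Illumina MouseRef-8 v2.0 arrays, 1 per mouse, and the deposited values are linear intensities after quantile normalization and background subtraction by the authors (BeadStudio 3.2); 30.1% of them lay below 0. The genome build of the probes is not given in the sources used here, and 38 columns of values not normalized, whose names do not match single samples, were not used, so chips were not tested as batches. Genes and lists were chosen with earlier results of these data known.

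Detection required a value above 1.64 times the root mean square of the values below 0 of that array (17.5 to 17.6 units), on most arrays (a share over 0.5) of at least 1 group. From each gene the brightest detected probe was taken (2396 genes had several). Values were corrected with normexp (offset 16, without control probes), log2 transformed and quantile normalized, and a linear model over all 3 groups was fitted in limma 3.58.1 (lmFit, then eBayes; R 4.3.3), with Benjamini-Hochberg adjustment over the 9346 genes. The method was tested on simulated data. Figures were drawn with matplotlib 3.10.9. The genes named are the 15 largest rises and falls whose groups do not overlap, up to 5 members of each of 48 gene lists by p-value, every called member of a list with 5 or fewer calls in a direction, the genes the study measured by PCR or lists by pathway, and Cnr1, Faah and Mgll. Alternatives were another offset, a floor in place of normexp, median scaling, other detection rules, the mean over probes, a fit of both groups alone, a trended prior, array weights, the replicate number as a block and each array left out. The number of arrays limits the precision, and p-values cover the spread between these mice.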

Additional observations from a re-analysis of the deposited data

Results flagged for a closer look

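Of 294 sets of values (a named gene in 1 group) examined for a single mouse far from the others of its group, by Dixon's test, 21 had one; chance alone gives about 1 in 20. In AM251/IDFP mouse 3 the signals were the highest of its group for Steap4 (912, next 573), Osmr (499.9, next 184), Lars (939, next 616), Ftsj3 (597, next 409), Wdr74 (862, next 595) and Fgl1 (22766, next 19836), and the lowest for Cyp3a13 (3470.0, next 6109), Hes6 (246, next 430.2) and Ptdss2 (86.4, next 139). AM251/IDFP mouse 4 had the lowest Saa2 (1885, next 2881) and the highest Slc25a15 (6547, next 5608) and Zfp280d (88.4, next 70.2). Of IDFP-treated mice, mouse 6 had the highest Psat1 (643, next 174), Gars (5980.5, next 4115) and Iars (1177, next 879) and the lowest Kynu (2490.0, next 3406). Single values stood apart for Aars (lowest 1986 in IDFP mouse 2, next 2490.0), Chkb (highest 1013 in IDFP mouse 8, next 740.1), Gadd45b (lowest 157 in IDFP mouse 1, next 478), Gnl2 (lowest 259 in IDFP mouse 5, next 306) and Icam1 (lowest 329 in IDFP mouse 3, next 396).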

How the results depend on the processing

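No gene called under an alternative was called in the other direction in the fit of all arrays. With the replicate number as a block 296 genes were higher and 229 lower (288 and 207 of them shared with the fit without it); same-numbered AM251/IDFP and IDFP mice had correlations of -0.15 to 0.20 in their deviations from the group means and 2 of 5 correlated best with their own number, so the numbers were not taken as pairs. Leaving out each array in turn gave 387 to 615 higher and 280 to 485 lower genes, the fewest without AM251/IDFP mouse 3. The other 9 settings gave 447 to 609 higher and 341 to 481 lower genes. Of 145 named genes that passed, 94 passed without any single array and 79 in every setting, and 0 changed direction. Among the 94, calls lost with the replicate block alone included those of Pdk4, G6pc, Csnk1e, Osmr, Saa3 and Ptdss2 (adjusted p of 0.0559 to 0.116 by limma). The 5 against 8 mice limit the precision, and changes near the background (17.5 units on the scale of the deposited values) are understated.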

Other observations

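Several gene groups beside those above held few or no calls. Of 21 interferon-induced genes 2 rose, Irf9, a subunit of the ISGF3 complex (log2 change 0.67, SE 0.16, adjusted p = 0.0109 by limma, and 0.125 with the mean over detected probes), and Eif2ak2, the kinase PKR (0.58, SE 0.13, adjusted p = 0.00709), against 5.97% higher among all genes. Of 17 RGS proteins and MAP kinase phosphatases Dusp11, a phosphatase that acts on RNA, rose (0.71, SE 0.13, adjusted p = 0.00146), with 780 to 933 in AM251/IDFP- and 368 to 698 in IDFP-treated mice, while Rgs1 and Rgs16 had log2 changes of -0.84 and -1.18 (adjusted p = 0.0515 and 0.121). Of 14 p53 targets 2 fell (14.3% in either direction, against 10.8% of all genes), Sesn1 and the BH3-only gene Bbc3 (-0.68, lost without AM251/IDFP mouse 2 or 3 and with the mean over detected probes). The 3 calls among 14 glucocorticoid-responsive and metallothionein genes (21.4%, against 10.8%) were Lcn2, Cyp2b10 and Gadd45b, which other lists hold as well, and Fkbp5, induced by glucocorticoids, had a log2 change of 1.00 (adjusted p = 0.0599) although the groups did not overlap.

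Of 16 genes of IGF, growth hormone signaling and hepatokines (18.8% in either direction, against 10.8% of all genes) Inhbe and Fgf21 rose and Igfals, which carries IGF in plasma, was lower (-0.58, lost without 11 of the 19 arrays). Genes of liver zones held few calls. Of 14 pericentral genes 0 passed (4 had an unadjusted p under 0.05). Of 12 periportal genes Cdh1, or E-cadherin, was lower (-0.62, lost without IDFP mouse 4 or 5 or AM251/IDFP mouse 1 or 4). Among 21 ABC and SLC transporters of hepatocytes Abcg8 was the one to pass. Acta2, the smooth muscle actin of activated stellate cells, ranged from 149 to 340.1 in AM251/IDFP-treated mice and from 198 to 7929 in IDFP-treated mice, where 1 mouse held the high value (log2 change -1.23, adjusted p = 0.255).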
